A study of Homo sapiens with 12 samples.

Results

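The pregnancy-specific glycoprotein (PSG) genes form a cluster on human chromosome 19. The 10 protein-coding members PSG1, PSG2, PSG3, PSG4, PSG5, PSG6, PSG7, PSG8, PSG9 and PSG11 were followed here among the 60671 genes of the count table. The family was chosen by a measured value, since PSG1, PSG6 and PSG2 had the largest falls in knockout cells moved to low serum among called genes that reached 10 CPM (counts per 1000000 gene counts) in either group. All libraries were from BJ-5ta cells, which are human foreskin fibroblasts immortalized with telomerase. WT_10 is wild-type cells in medium with 10% serum and WT_01 is wild-type cells after 10 days in 0.1% serum, which brings fibroblasts into quiescence. Leo1_10 and Leo1_01 are ΔLEO1 cells in the same 2 media. These ΔLEO1 cells came from 1 clone in which CRISPR/Cas9 removed the start of LEO1, a gene for a subunit of the PAF1 complex that acts with RNA polymerase II, so that a property of the clone and an effect of LEO1 loss cannot be told apart. Each group had 3 libraries of poly(A) RNA.

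PSG proteins are secreted, heavily glycosylated members of the immunoglobulin superfamily and belong to the same larger family as the carcinoembryonic antigen-related (CEACAM) proteins. They are built from an N-terminal variable-like domain followed by constant-like domains. The syncytiotrophoblast of the placenta is their best-known source, and they reach high levels in maternal blood, where they are known for effects on immune cells, on integrins and on latent TGF-β. Transcripts of the family have also been found in cultured fibroblasts.

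The cluster spanned 547893 bases at chr19:42721638-43269530 (GRCh38, GENCODE gene models), with all 10 genes on the minus strand. PSG3 lay at the left end and PSG9, at chr19:43211791-43269530, at the right end. PSG8 (chr19:42752686-42855691) had an annotated span of 103006 bases that overlapped the pseudogene PSG10P. PSG1 was at chr19:42866464-42879822, PSG6 at chr19:42902079-42919563, PSG2 at chr19:43064211-43083045, PSG5 at chr19:43166256-43186536 and PSG4 at chr19:43192702-43207299. Over 45 pairs of members, the coding sequences were 89.6% to 95.8% identical, with a median of 93.3%. PSG9 and PSG11 were the least alike pair and PSG1 and PSG8 the most alike.

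Such likeness bears on counting, because a read that matches several members cannot be given to 1 of them with certainty. The following coding stretch of exon 3, 58 bases long like a read, is shown because PSG4, PSG6 and PSG9 have the same letters there as PSG5. Capitals mark letters that differ from PSG5.
PSG5 (chr19:43178915-43178972): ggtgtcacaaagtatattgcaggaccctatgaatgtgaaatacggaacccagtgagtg
PSG1 (chr19:42871803-42871860): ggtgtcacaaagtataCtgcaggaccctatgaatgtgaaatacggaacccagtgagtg
PSG2 (chr19:43075390-43075447): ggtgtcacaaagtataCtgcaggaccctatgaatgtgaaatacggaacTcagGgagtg
Another stretch of the same exon tells all 10 members apart and is shown for 5 of those with enough counts to be tested, again with letters that differ from PSG5 in capitals.
PSG5 (chr19:43179062-43179119): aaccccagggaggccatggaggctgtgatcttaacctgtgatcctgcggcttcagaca
PSG4 (chr19:43198180-43198237): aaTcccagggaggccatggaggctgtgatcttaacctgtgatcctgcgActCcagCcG
PSG1 (chr19:42871950-42872007): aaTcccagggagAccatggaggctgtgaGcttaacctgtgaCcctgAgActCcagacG
PSG2 (chr19:43075537-43075594): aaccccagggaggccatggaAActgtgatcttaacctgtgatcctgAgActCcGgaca
PSG6 (chr19:42910763-42910820): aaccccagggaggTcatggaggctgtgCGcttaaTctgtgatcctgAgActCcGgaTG

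Taken over all annotated transcripts, most stretches of 58 bases belonged to 1 gene. The share found in no other gene was 70.2% for PSG9, 70.6% for PSG8, 80.3% for PSG3, 81.4% for PSG1, 83.7% for PSG11, 83.8% for PSG2, 86.4% for PSG5, 86.8% for PSG6, 87.1% for PSG7 and 88.5% for PSG4. Of the PSG9 stretches, 12.2% also occurred in genes outside the family. They were in the pseudogene CEACAMP10, which shared 629 stretches with PSG9, 133 with PSG8, 74 with PSG1, 72 with PSG4 and 26 with PSG7. The part of a member's stretches that also occurred in PSG5, the most abundant member, was between 0.701% for PSG7 and 4.68% for PSG3. How the counting treated reads that matched more than 1 gene is not given in the sources used here, so the count of a member may hold reads of another.

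**Figure D1:**
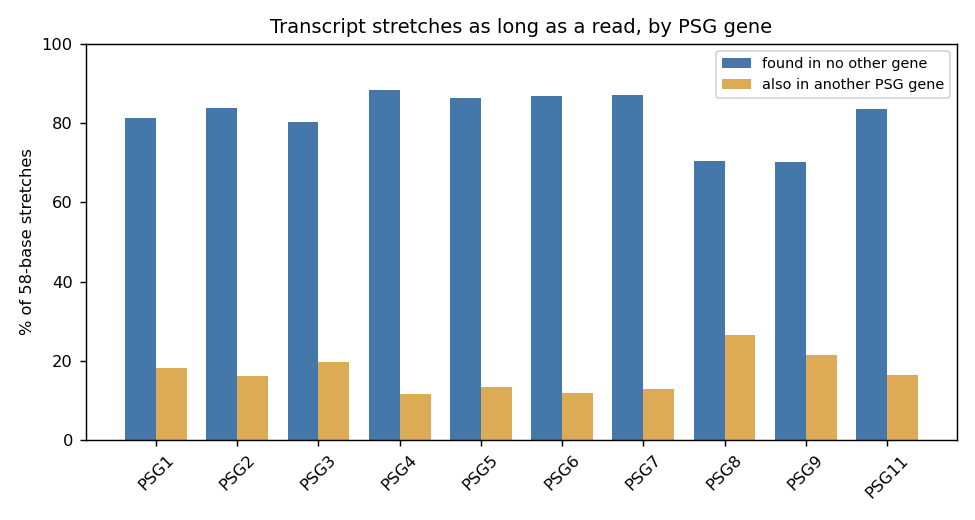
Percent of all 58-base stretches in the annotated transcripts of each PSG gene that occur in no other gene (blue) or also in another PSG gene (yellow). PSG8 and PSG9 had the lowest unique shares, 70.6% and 70.2%.

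RefSeq promoters (GRCh38.p14) were at hand for PSG3, PSG4 and PSG5. Over the 250 bases before the start, the aligned parts of PSG3 and PSG5 were 96.3% identical, those of PSG3 and PSG4 95.1% and those of PSG4 and PSG5 94.1%. A stretch of 27 bases is shown because the promoters of PSG3 and PSG4 held a GC box there and that of PSG5 a CACCC box. Capitals mark the box, which for PSG3 and PSG4 reads as the reverse complement of GGGCGG.
PSG3 (chr19:42740517-42740543): cctgggcctgaccCCGCCCatgaacct
PSG4 (chr19:43205669-43205695): cctgggcctgaccCCGCCCacgagctt
PSG5 (chr19:43186537-43186563): cctgggcctgacccCACCCatgagcct
Searched on both strands, GGGCGG occurred in 42.6% of 35116 promoters cut to the same length and CACCC in 54.7%. Other motifs searched in the same way were in none of the 3 windows. Among them the TATA box TATAAA was found in 10.7% of all promoters and the ETS motif CCGGAAG in 8.52%. The nuclear receptor motif AGGTCA was found in 12.1%, the AP-1 motif TGANTCA in 6.57% and the TEAD motif CATTCC in 11.9%.

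The libraries held 26240632 to 45315560 gene counts and 244023 to 1090393 counts of the added ERCC transcripts. The LEO1 count was 682 to 1001 in the wild-type libraries and 23 to 55 in the ΔLEO1 libraries, in keeping with every label. The highest-numbered library of each group stood apart from the other two of its group, and nothing in the labels says whether the 3 came from separate cultures. The p-values therefore measure the spread between these libraries, which may be technical. The counts of called members given below were the same with the highest-numbered library of each group left out. An ERCC-scaled count, used below, is a gene's count per 1000000 counts of the library's ERCC size. It falls with the amount of messenger RNA per added transcript, and in such bulk samples fewer cells that express a gene and less RNA in each cell cannot be told apart. The study's methods give no cell number per sample for the ERCC addition, so differences in RNA input may also enter this scale. Within Leo1_01 the ERCC share of a library's counts ran from 1.09% to 3.24%. Of the 10 members, 6 had more than 1 CPM in 3 or more libraries and were tested among 13236 genes. PSG2 and PSG6 passed that filter through the Leo1_10 libraries alone and so had to be high there.

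PSG5 was by far the most abundant member in wild-type cells in 10% serum. Its counts were 18477, 19724 and 22137 in the WT_10 libraries, an ERCC-scaled count of 51996 ± 12354 (SD, n = 3), which placed it between rank 241 and rank 255 among all genes of a library. PSG1 came next per kilobase of exon. The ERCC-scaled level per kilobase was 11115 ± 2641 (SD, n = 3) for PSG5, 163 ± 23.8 for PSG1, 105 ± 18.6 for PSG9, 33.8 ± 4.38 for PSG4, 24.4 ± 8.07 for PSG2 and 8.63 ± 2.18 for PSG6. Only the ranges of PSG4 and PSG2 overlapped among neighbours in this order. PSG3 followed with 4.88 ± 1.77, and PSG7, PSG11 and PSG8 were near 1 per kilobase with ranges that overlapped.

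Wild-type cells had lower levels of every tested PSG gene after 10 days in 0.1% serum. The counts compared were from none of the libraries that chose the family, although the fit took the spread from all 12 libraries. With only the 6 wild-type libraries in the fit, the same number of members, 6, was called lower. PSG5 counts were 1107, 803 and 1916 in the WT_01 libraries, against 18477 or more in the WT_10 libraries. The groups were far from overlapping, and on the ERCC scale PSG5 fell by 4.82 ± 0.44 (log2, SE; edgeR adjusted p = 1.48e-17). The PSG1 counts of 212, 279 and 533 in WT_10 stood against 0, 2 and 8 in WT_01. PSG1, whose protein is known to bind integrins and heparan sulfate chains and to activate latent TGF-β, fell by 7.35 ± 0.66 (log2, SE; edgeR adjusted p = 4.23e-24). PSG9, whose protein is also known as an activator of latent TGF-β, had counts of 182, 165 and 292 in WT_10 and 5, 6 and 20 in WT_01. It fell by 5.16 ± 0.56 (log2, SE; edgeR adjusted p = 9.90e-15). PSG4 counts went from 70, 70 and 117 to 3, 1 and 7, and PSG4 fell by 5.31 ± 0.68 (log2, SE; edgeR adjusted p = 1.15e-12).

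PSG2 and PSG6 were scarce in wild-type cells and close to undetected in low serum. The PSG2 counts were 27, 23 and 28 in WT_10 and 1, 0 and 2 in WT_01. The summed counts of 78 and 3 gave a ratio of 43.5 on the ERCC scale, with an exact 95% interval of 14.3 to 216 for counting error only. PSG6 counts were 12, 13 and 32 in WT_10 and 0, 0 and 2 in WT_01, a ratio of 47.7 with an interval of 12.6 to 403. Both passed the test (edgeR adjusted p = 1.01e-09 for PSG2 and 2.87e-08 for PSG6).

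In all, 6 of 6 tested members were called lower and 0 higher in this comparison, and in 6 of 6 the libraries of both groups did not overlap. Among all tested genes 36.1% were called lower, 0.944% were called higher and 53.4% were lower without overlap, since the median gene changed by -0.97 (log2) on this scale. Relative to that median, the members' fitted changes ran from -3.85 for PSG5 to -6.38 for PSG1. When the genes themselves set the scale (TMM on the genes), the median was near 0 and the 6 members had log2 changes of -3.79 for PSG5, -4.14 for PSG9, -4.30 for PSG4, -4.35 for PSG2, -4.41 for PSG6 and -6.41 for PSG1, each called. The number of genes called lower ran from 1147 without WT_01 replicate 7 to 8603 without Leo1_01 replicate 12, so the share of 36.1% rests on single libraries. WT_01 replicate 9 held most of the few low-serum counts. Without it PSG1, PSG2 and PSG6 had 2, 1 and 0 counts left in WT_01, and no fold is given for them.

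**Figure D2:**
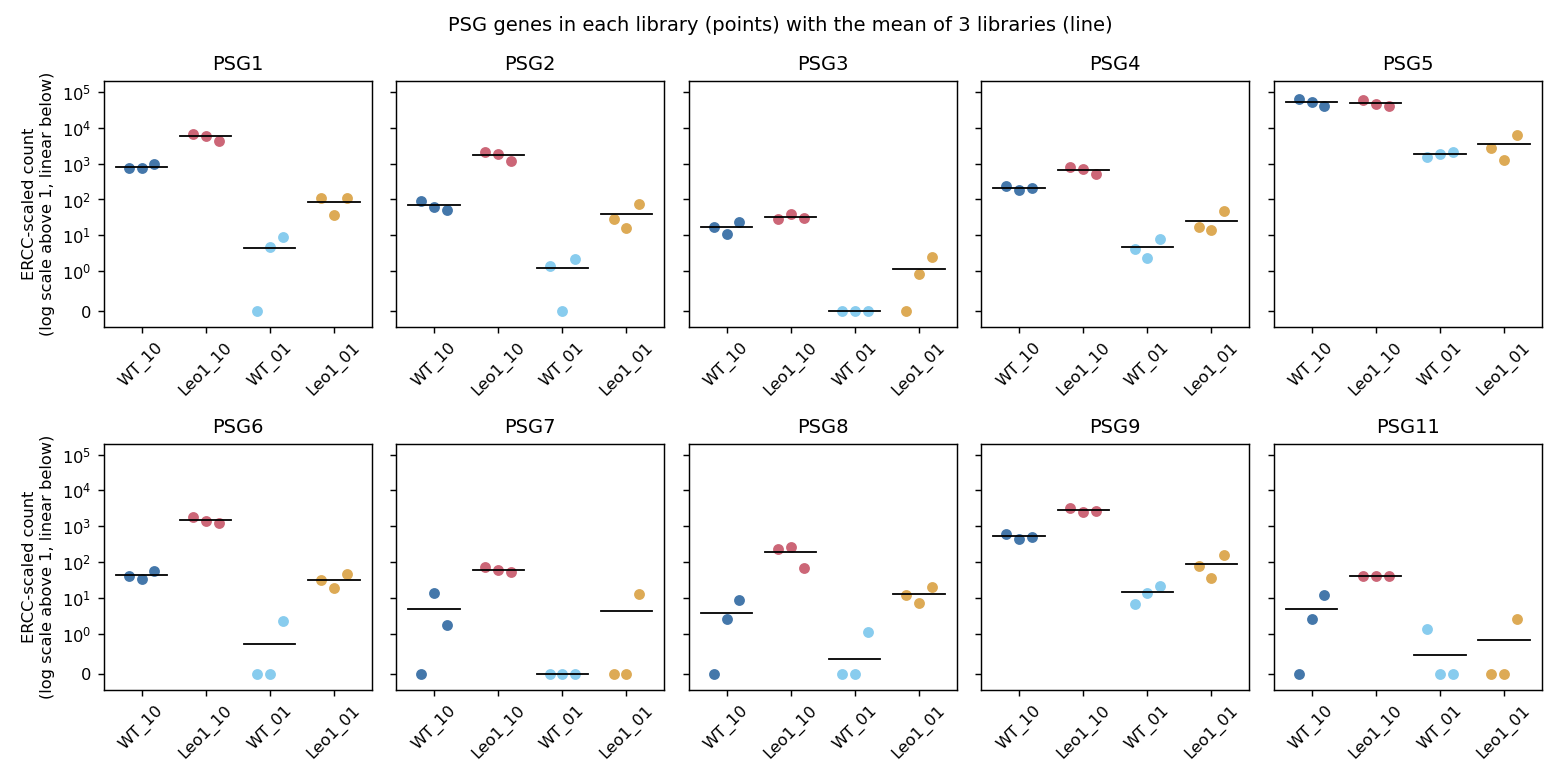
ERCC-scaled count of each of the 10 PSG genes in each of the 12 libraries (points, 3 per group) with the group mean (line). The vertical axis is logarithmic above 1 and linear below it. PSG5 is the highest member in every group, and for PSG1, PSG2, PSG4, PSG6 and PSG9 the Leo1_10 points lie above all other points.

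In ΔLEO1 cells the same shift in serum was the contrast that chose the family, and its values are given as a description. PSG1 counts were 1689, 2281 and 1824 in Leo1_10 and 73, 39 and 44 in Leo1_01, a log2 change of -6.06. PSG6 counts of 450, 533 and 525 stood against 21, 21 and 18, a log2 change of -5.55. PSG2 counts of 515, 714 and 512 stood against 19, 17 and 30, a log2 change of -5.47. Among called genes whose libraries did not overlap and whose mean reached 10 CPM in either group, these are the 3 largest falls, and just outside them stood MYOCD at -5.37 and DIO2 at -5.16. The remaining tested members had log2 changes of -5.01 for PSG9, -4.77 for PSG4 and -3.81 for PSG5. Of all tested genes 47.2% were called lower, 0.975% higher and 50.9% were lower without overlap, around a median of -1.05. As the contrast chose the family, nothing is read from the 6 members past the threshold.

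PSG5 counts in ΔLEO1 cells were 14114, 17828 and 17029 in 10% serum and 1811, 1355 and 2454 in 0.1% serum. The 3 low-serum libraries spread widely on the ERCC scale, from 1248 to 6306, with Leo1_01 replicate 12 the highest. Without that library the log2 changes in low serum were -4.59 for PSG5, -5.44 for PSG4, -5.67 for PSG9 and -6.29 for PSG2.

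In 10% serum, the less abundant members stood higher in ΔLEO1 cells than in wild-type cells, while PSG5 did not. PSG5 had an ERCC-scaled count of 51996 ± 12354 in WT_10 and 47939 ± 8758 in Leo1_10 (SD, n = 3 each). The groups overlapped on this scale, and the log2 difference of -0.12 ± 0.44 (SE) did not pass the test (edgeR adjusted p = 0.895). In CPM, which does not use the ERCC scale, PSG5 had 503 to 565 in WT_10 and 364 to 393 in Leo1_10, without overlap. PSG9 counts of 801, 965 and 1121 in Leo1_10 lay above the 165 to 292 of WT_10, a log2 difference of 2.40 ± 0.49 (SE; edgeR adjusted p = 7.04e-05). The PSG4 counts were 193, 267 and 220 in Leo1_10 against 70, 70 and 117, a log2 difference of 1.65 ± 0.51 (SE; edgeR adjusted p = 0.0223). The groups of PSG4 did not overlap, but leaving out 1 of 5 libraries ended its call, with edgeR adjusted p = 0.0546, 0.158 and 0.0616 without WT_10 replicates 1, 2 and 3, and 0.107 and 0.0847 without Leo1_10 replicates 4 and 5.

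PSG1, PSG2 and PSG6 were chosen for high values in these Leo1_10 libraries relative to Leo1_01, and their difference from wild type in 10% serum is therefore given without a test. The PSG1 mean of 5694 ± 1288 ERCC-scaled counts in Leo1_10 was above 808 ± 118 in WT_10, a log2 difference of 2.81. PSG2 had 1717 ± 454 against 68.2 ± 22.6, a log2 difference of 4.67. PSG6 had 1484 ± 310 against 44.3 ± 11.2, a log2 difference of 5.04. In these 3 genes every Leo1_10 library was above every WT_10 library. Of the 3 tested members that did not choose the family, PSG4 and PSG9 were called higher without overlap and PSG5 was not called. Of all tested genes, 4.20% were called higher, 4.64% were called lower and 23.7% were higher without overlap, around a median of 0.35.

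In 0.1% serum PSG9 and PSG4 were called higher in ΔLEO1 cells, at far lower counts. The values of PSG1, PSG2 and PSG6 are again given without a test, since the Leo1_01 libraries took part in choosing them. PSG1 had 73, 39 and 44 counts in Leo1_01 against 0, 2 and 8 in WT_01. The log2 difference was 4.11, with every Leo1_01 library above every WT_01 library. For PSG2 the summed counts of 66 and 3 gave a ratio of 21.1, with an exact 95% interval of 6.93 to 105 for counting error. For PSG6 the summed counts of 60 and 2 gave a ratio of 28.8, with an interval of 7.64 to 244. PSG9 counts of 50, 39 and 60 against 5, 6 and 20 gave a log2 difference of 2.55 ± 0.56 (SE; edgeR adjusted p = 2.25e-04).

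PSG4 and PSG5 were less clear in low serum. The PSG4 counts were 11, 15 and 18 in Leo1_01 and 3, 1 and 7 in WT_01, a log2 difference of 2.18 ± 0.71 (SE; edgeR adjusted p = 0.0205). That call was lost without WT_01 replicate 7 (edgeR adjusted p = 0.150), without WT_01 replicate 8 (0.135) and without Leo1_01 replicate 12 (0.145). PSG5 overlapped between the groups, with a log2 difference of 0.90 ± 0.44 (SE; edgeR adjusted p = 0.327). It was 1.30 and called without Leo1_01 replicate 11 (edgeR adjusted p = 0.0145) and 0.12 without Leo1_01 replicate 12. The difference of PSG9 was 1.89 without Leo1_01 replicate 12 and still called.

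Of the 3 tested members that did not choose the family, 2 were called higher and 0 lower in this comparison. Among all tested genes 3.85% were called higher, 3.59% lower and 4.64% were higher without overlap, around a median of 0.27. Comparisons that share a group of libraries are not independent of each other.

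The change in low serum was not called different between the genotypes for PSG4, PSG5 and PSG9, which did not choose the family. Their interaction of genotype and serum was 1.02 ± 0.62 for PSG5, 0.53 ± 0.87 for PSG4 and 0.15 ± 0.74 for PSG9 (log2, SE). Each had edgeR adjusted p = 1.00. With SEs of this size, equal changes in the genotypes were not shown. The interaction of PSG1, PSG2 and PSG6 is given without a test, since their fall in ΔLEO1 cells chose the family. It was 1.29 ± 0.82 for PSG1, -0.12 ± 1.12 for PSG2 and -0.29 ± 1.28 for PSG6. The interaction test includes the contrast that chose the family. Of all tested genes 0.136% were called higher and 0.0831% lower in it. Of PSG4, PSG5 and PSG9, 0 were called in either direction. At an unadjusted p under 0.05 the count was also 0 on the ERCC scale with edgeR's likelihood ratio test, its quasi-likelihood test and DESeq2. With TMM on the genes PSG5 was under that threshold, at 0.92 (edgeR adjusted p = 0.0926), and PSG1 had 1.48, given without a test. With 1 library left out the interaction ran from 0.71 to 2.56 for PSG1 and from 0.23 to 1.41 for PSG5. That of PSG5 was never called, and its unadjusted p was under 0.05 without Leo1_01 replicate 11.

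**Figure D3:**
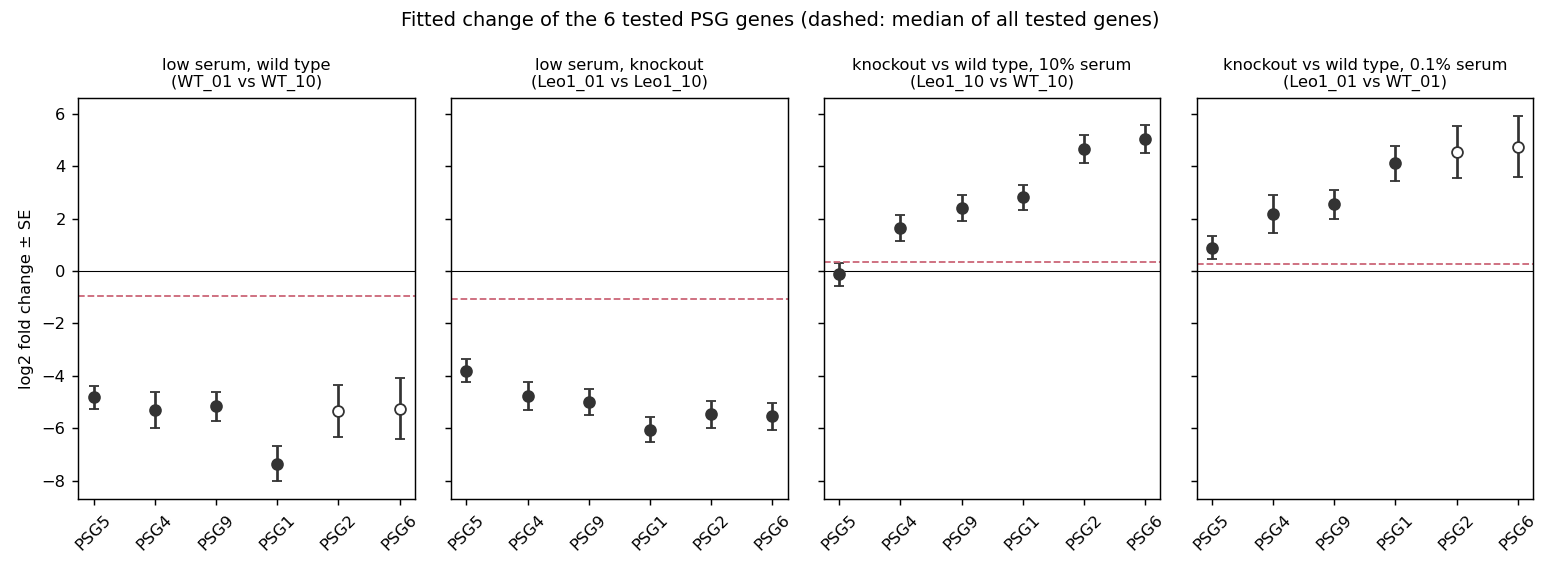
Log2 fold change (point) and SE (bar) of the 6 tested PSG genes in each of 4 comparisons on the ERCC scale, with the median of all tested genes as a dashed line. Open points mark comparisons in which a group had 3 counts or fewer in all, where the fitted value depends on the model. PSG5 lies close to 0 between the genotypes in 10% serum, at -0.12, while the other 5 members lie at 1.65 to 5.04.

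The 4 members under the filter are described by their counts. PSG8 had counts of 0, 1 and 5 in WT_10, 57, 103 and 29 in Leo1_10, 0, 0 and 1 in WT_01 and 8, 8 and 8 in Leo1_01. Its summed counts in 10% serum, 189 in Leo1_10 and 6 in WT_10, gave a ratio of 36.6 with an exact 95% interval of 16.5 to 101 for counting error. PSG7 had 0, 5 and 1 counts in WT_10, 18, 23 and 23 in Leo1_10, 0 in every WT_01 library and 0, 0 and 5 in Leo1_01. The PSG7 sums of 64 and 6 in 10% serum gave a ratio of 12.4, with an interval of 5.39 to 35.0. PSG11 had 0, 1 and 7 counts in WT_10 and 10, 16 and 17 in Leo1_10, a ratio of 6.25 with an interval of 2.90 to 15.4, and at most 1 count in any low-serum library. PSG3 differed less, with 5, 4 and 13 counts in WT_10 and 7, 15 and 13 in Leo1_10, a ratio of 1.85 with an interval of 1.05 to 3.31.

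In low serum these 4 genes were almost undetected in wild-type cells. PSG3 had 0 counts in WT_01 against 22 in WT_10, at least 12.3-fold lower when 3 counts over the group are taken as the limit, while the exact 95% interval of the ratio starts at 9.17. PSG7 had 0 against 6, at least 3.35-fold lower by the same limit, with an exact interval that starts at 1.97. PSG8 had 1 against 6 counts, a ratio of 10.0 with an interval of 1.22 to 462, and PSG11 had 1 against 8, a ratio of 13.4 with an interval of 1.79 to 594. These ratios rest on very few counts.

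The pseudogene PSG10P had counts of 12, 21 and 29 in WT_10, 17, 17 and 12 in Leo1_10, 2, 0 and 0 in WT_01 and 3, 0 and 0 in Leo1_01. Unlike PSG8, whose annotated span it overlaps, it was no higher in Leo1_10 than in WT_10 on this count. The antisense gene PSG11-AS1 had 6, 17 and 10 counts in WT_10 and 40, 42 and 29 in Leo1_10, and 2 to 8 in WT_01 and 15 to 26 in Leo1_01. The strand setting of the counting is not given in the sources used here, so reads of PSG11 and of this partner may not be separated. PSG8-AS1 had at most 6 counts in any library.

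The make-up of the PSG counts within a library does not depend on the ERCC scale. PSG5 made up 97.3%, 97.2% and 95.6% of the summed counts of the 10 genes in the WT_10 libraries. In the WT_01 libraries it made up 99.1%, 98.9% and 98.0%, with exact 95% binomial intervals no lower than 97.2%. All WT_01 libraries were above all WT_10 libraries (means 98.7% and 96.7%; exact two-sided permutation test, p = 0.1, the smallest p that 3 libraries against 3 can give). PSG5 took a smaller part in the ΔLEO1 libraries, 79.1%, 78.4% and 79.9% in Leo1_10 and 90.9%, 90.6% and 93.0% in Leo1_01. PSG1 made up 1.60% ± 0.62 of the PSG counts in WT_10 and 9.35% ± 0.74 in Leo1_10 (SD, n = 3 each). In the same groups PSG9 made up 1.01% ± 0.23 and 4.66% ± 0.53, PSG2 0.125% ± 0.0150 and 2.81% ± 0.37, and PSG6 0.0885% ± 0.0430 and 2.44% ± 0.0904. Since the Leo1 libraries chose the family, these are descriptions.

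Summed over the 10 genes, the ERCC-scaled count was 53690 ± 12312 in WT_10 and 60627 ± 11263 in Leo1_10, with ranges that overlapped. Without PSG5 the sum was 1694 ± 167 in WT_10, 12688 ± 2542 in Leo1_10, 26.4 ± 16.1 in WT_01 and 293 ± 174 in Leo1_01, with no overlap between the genotypes in either medium. That sum holds PSG1, PSG2 and PSG6, which were chosen for high Leo1_10 values, and is a description. Of all tested genes 23.7% in 10% serum and 4.64% in 0.1% serum were higher in ΔLEO1 cells without overlap.

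**Figure D4:**
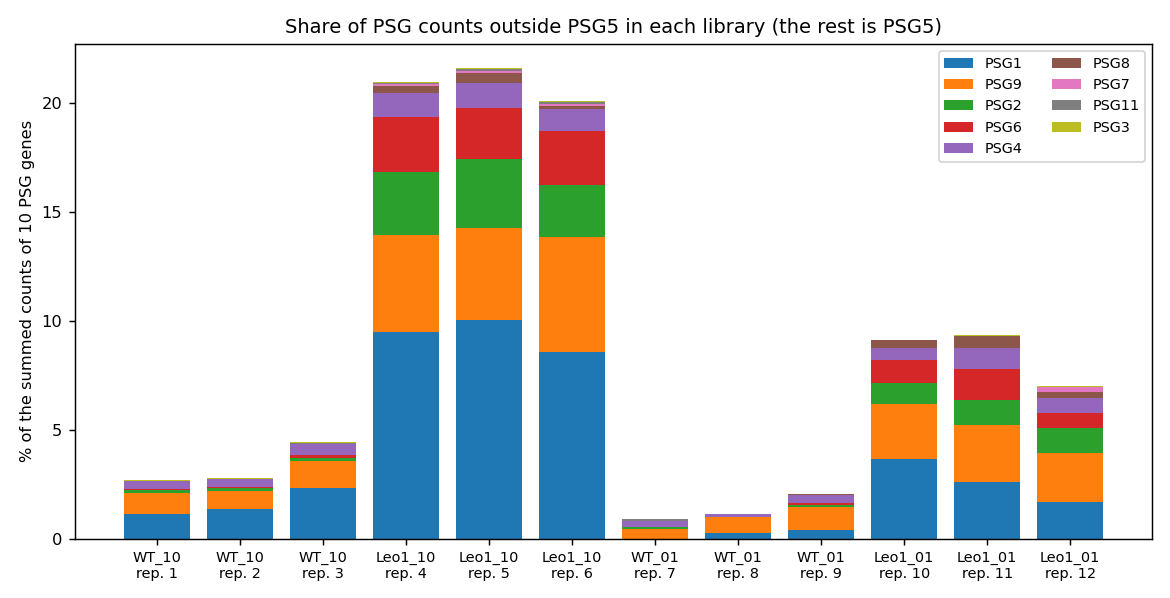
Percent of the summed counts of the 10 PSG genes taken by each member other than PSG5, stacked, in each of the 12 libraries. The members other than PSG5 took about 20% in the Leo1_10 libraries, where PSG5 held 78.4% to 79.9%, and less in all other libraries.

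The levels per kilobase in ΔLEO1 cells followed another order than in wild-type cells. In Leo1_10 PSG5 was first with 10248 ± 1872 ERCC-scaled counts per kilobase, then PSG1 with 1148 ± 260, PSG2 with 614 ± 162, PSG9 with 555 ± 81.5, PSG6 with 289 ± 60.4 and PSG4 with 106 ± 21.3 (SD, n = 3). The ranges of PSG2 and PSG9 overlapped, and the other neighbours in this order did not. In both low-serum groups PSG5 was first and PSG9 second, at 393 ± 63.4 and 2.84 ± 1.52 per kilobase in WT_01 and at 734 ± 556 and 17.6 ± 11.9 in Leo1_01. Below PSG5 all neighbours in low serum overlapped.

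Outside the family, the annotation held 110 genes of the count table that start within the cluster or within 1000000 bases of its ends, of which 44 were tested. In wild-type cells in low serum 8 of these were called lower and 1 higher, with a median of -0.67, where 36.1% of all tested genes were called lower around a median of -0.97. In the ΔLEO1 cells 15 were called lower and 1 higher, with a median of -0.97, where 47.2% of all tested genes were called lower around -1.05. Between genotypes 2 were called higher in 10% serum and 3 in 0.1% serum, and 0 were called lower in either, against 4.20% and 3.85% of all tested genes called higher. These neighbours passed the filter on low counts through ΔLEO1 libraries alone and so had to be high there. The nearby medians were 0.49 and 0.20, against 0.35 and 0.27 over all tested genes.

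CEACAMP10, a processed pseudogene inside the cluster, was among them, and its difference between genotypes is given without a test. It had 14 to 24 counts in WT_10, 254 to 354 in Leo1_10, 0 to 2 in WT_01 and 43 to 85 in Leo1_01. The log2 difference of CEACAMP10 between genotypes was 4.25 in 10% serum. In wild-type cells in low serum it was called lower (edgeR adjusted p = 1.68e-07), with 57 counts in WT_10 and 3 in WT_01. It shares stretches with PSG9, PSG8, PSG1, PSG4 and PSG7, as given above, and the part of shared reads in its counts was not tested. GRIK5, a kainate receptor subunit gene 652 kb to the left, likewise had higher counts in ΔLEO1 cells, with 0 to 2 counts in WT_10, 23 to 44 in Leo1_10, 0 to 8 in WT_01 and 47 to 53 in Leo1_01. Its log2 difference was 4.82 in 10% serum and 4.28 in 0.1% serum, again with no test since it passed the filter through Leo1_01 alone. GRIK5 was not called in low serum in wild-type cells, with a log2 change of 0.29.

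ZNF233, a zinc finger gene at the right edge of this window, fell by 2.64 ± 0.64 (log2, SE) in wild-type cells in low serum (edgeR adjusted p = 6.42e-04) and had 18 to 62 counts in Leo1_01 against 1 to 9 in WT_01. ETHE1, a mitochondrial sulfur dioxygenase gene, fell by 1.60 ± 0.45 in wild-type cells in low serum (edgeR adjusted p = 0.00539). In ΔLEO1 cells in low serum ZNF526 fell by 1.75 ± 0.47 (edgeR adjusted p = 0.00468) and DEDD2 by 1.64 ± 0.46 (edgeR adjusted p = 0.00686).

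**Figure D5:**
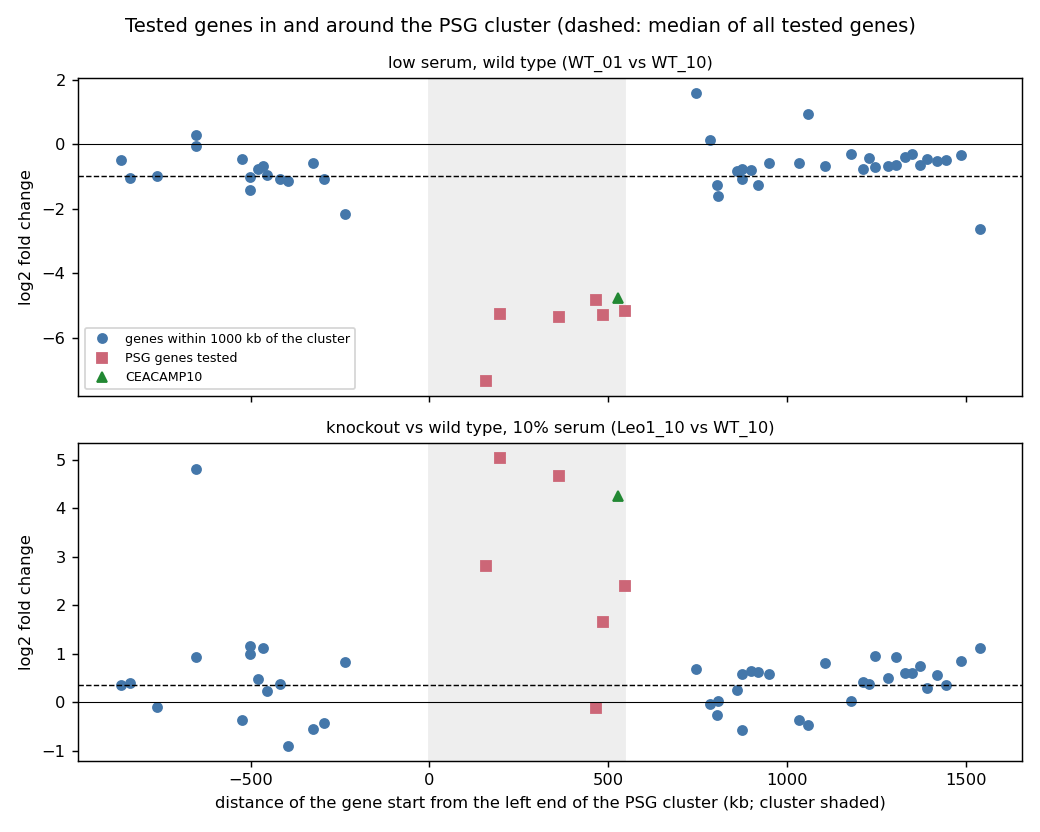
Log2 fold change of the tested PSG genes (squares), CEACAMP10 (triangle) and the other tested genes within 1000 kb of the cluster (circles) against the distance of the gene start from the left end of the cluster in kb, for low serum in wild-type cells (top) and ΔLEO1 against wild-type cells in 10% serum (bottom). The cluster is shaded and the dashed line is the median of all tested genes, -0.97 and 0.35. In the lower panel PSG5 lies at -0.12 among higher PSG genes, and GRIK5 at 4.82 is the outlying circle.

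The 5 tested genes whose profile was most like the mean of the 6 tested members over the 12 libraries lay on other chromosomes. They were UCP2 (Pearson r = 0.987), a mitochondrial carrier gene, CDA (0.986), for cytidine deaminase, the long noncoding RNA gene FILNC1 (0.985), MGAM (0.983), for maltase-glucoamylase, and CRIM1-DT (0.983), a divergent transcript. The points are 12 libraries in 4 groups that share depth and ERCC scale, so r is a description. CDA passed the filter through the Leo1_10 libraries alone and so had to be high there. The mean it was matched to holds PSG1, PSG2 and PSG6, which were chosen for high Leo1_10 values relative to Leo1_01. The ERCC-scaled count of MGAM was 585 ± 42.0 in WT_10, 3422 ± 837 in Leo1_10, 31.8 ± 5.88 in WT_01 and 314 ± 216 in Leo1_01 (SD, n = 3 each). UCP2 had 1239 ± 119, 2484 ± 687, 190 ± 52.7 and 503 ± 225 in the same order, a smaller range than that of the PSG genes.

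The related CEACAM genes were almost silent in these cells. Of 12 listed, 9 had 0 counts in all 12 libraries and only CEACAM19 was tested. CEACAM19 fell by 1.33 ± 0.51 (log2, SE) in wild-type cells in low serum (edgeR adjusted p = 0.0359) and was not called in the other comparisons.

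Among 15 listed binding partners of PSG proteins (integrins, proteoglycans, TGF-β and its carrier, CD9 and galectin-1), 14 were tested. In low serum 9 were called lower and 0 higher in wild-type cells, and 8 lower and 0 higher in ΔLEO1 cells, where 36.1% and 47.2% of all tested genes were called lower. Their medians of -1.09 and -1.05 were close to those of all tested genes, -0.97 and -1.05. In wild-type cells the smallest adjusted p were those of GPC1, a heparan sulfate proteoglycan, at -2.55 (edgeR adjusted p = 2.94e-06), ITGB1, the integrin β1 chain, at -2.14 (8.18e-05), TGFB2 at -2.04 (4.89e-04) and ITGA5, the integrin α5 chain, at -1.52 (0.00677). In ΔLEO1 cells TGFB2 changed by -3.21 (edgeR adjusted p = 2.07e-08), GPC1 by -1.75, ITGB1 by -1.67 and ITGAV by -1.56.

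TGFB2, the gene for transforming growth factor β2, differed between genotypes in the direction of PSG1, PSG2, PSG4, PSG6 and PSG9, while PSG5 was not called. It had 558.7 ± 19.4 ERCC-scaled counts in WT_10 and 11562 ± 3506 in Leo1_10 (SD, n = 3 each), a log2 difference of 4.37 ± 0.46 (SE; edgeR adjusted p = 1.04e-14), and 136 ± 14.9 in WT_01 and 1256 ± 1237 in Leo1_01, a difference of 3.21 ± 0.46 (edgeR adjusted p = 1.02e-08). In 10% serum the integrin β3 gene ITGB3 was also higher, by 2.201 ± 0.46 (edgeR adjusted p = 1.35e-04), while SDC1, for syndecan-1, was lower, with a log2 difference of -2.705 ± 0.46 (edgeR adjusted p = 1.07e-06), and LTBP1, for a latent TGF-β binding protein, had -1.70 ± 0.45 (edgeR adjusted p = 0.00405). The remaining 10 partners were not called in 10% serum, and 12 were not called in 0.1% serum, where LTBP1 had -1.72 ± 0.45 (edgeR adjusted p = 0.00386). Of all tested genes 4.20% were called higher and 4.64% lower in 10% serum, and 3.85% and 3.59% in 0.1% serum.

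All 8 listed transcription factor genes linked to PSG promoters in placental cells (SP1, SP3, KLF4, KLF6, GABPA, GABPB1, RXRA and RARA) were tested. KLF6 fell by 1.32 ± 0.45 (log2, SE) in wild-type cells in low serum (edgeR adjusted p = 0.0204). KLF6 and GABPB1 were the 2 called lower in ΔLEO1 cells in low serum, at -1.17 ± 0.45 (edgeR adjusted p = 0.0307) and -1.31 ± 0.47 (edgeR adjusted p = 0.0246). Of all tested genes 36.1% were called lower in wild-type and 47.2% in ΔLEO1 cells in low serum. The medians of the 8 factors were -0.73 and -0.77, against -0.97 and -1.05 over all tested genes. KLF4 was lower in ΔLEO1 cells in 10% serum, at -1.41 ± 0.46 (edgeR adjusted p = 0.0317), where 4.64% of all tested genes were called lower. Between genotypes in 0.1% serum 0 of 8 were called, and the most abundant were RXRA and SP3. Of all tested genes 3.59% were called lower and 3.85% higher there.

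Defining markers of the syncytiotrophoblast were at or near 0 in all libraries. Of 25 listed syncytiotrophoblast markers 8 had 0 counts in every library, among them CSH1, CSH2, GH2, CGB3, CGB5 and ERVFRD-1, and only 4 were tested. The chorionic gonadotropin subunit gene CGA had at most 24 counts and the syncytin gene ERVW-1 and the regulator GCM1 at most 1 and 2. The 4 tested were PAPPA, PAPPA2, ADAM12 and TFPI2, which fibroblasts also express. In 10% serum all 4 had lower values in ΔLEO1 cells, where PSG4 and PSG9 were called higher. Of all tested genes 4.64% were called lower there and 4.20% higher. The log2 differences were -1.77 ± 0.46 for PAPPA, -2.37 ± 0.50 for ADAM12 and -3.34 ± 0.52 for TFPI2 (edgeR adjusted p = 0.00293, 1.42e-04 and 9.08e-08). PAPPA2 passed the filter through wild-type libraries alone and so had to be high there. Its log2 difference of -3.95 is given without a test. The summed CPM of the list was 67.4 to 76.3 in WT_10, 13.5 to 16.7 in Leo1_10, 138 to 155 in WT_01 and 18.2 to 25.7 in Leo1_01. PAPPA alone had 44.0 to 45.1 CPM in WT_10 and 116 to 138 in WT_01. CPM is on the scale of the gene counts, while the calls are on the ERCC scale. In low serum 3 of the 4 were called lower in wild-type cells (ADAM12 at -1.98, PAPPA2 at -1.99 and TFPI2 at -1.20), and PAPPA was not called. TFPI2 at 1.46 was called higher in ΔLEO1 cells. Of all tested genes 36.1% were called lower in wild-type and 0.975% higher in ΔLEO1 cells in low serum. Between genotypes in 0.1% serum PAPPA was called lower in ΔLEO1 cells at -3.15, where 3.59% of all tested genes were called lower. PAPPA2 had -2.77, again without a test.

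Of 8 trophoblast markers 3 were tested (TFAP2A, TFAP2C and KRT7), and 0 were called between genotypes. TFAP2A was called lower in low serum in both genotypes, at -1.61 and -1.76, and TFAP2C at -1.13 in ΔLEO1 cells. Of all tested genes 36.1% were called lower in wild-type and 47.2% in ΔLEO1 cells in low serum. GATA3 had 1 to 13 counts, ELF5 at most 1 and VGLL1 0. All 18 fibroblast markers were tested, with a summed CPM of 79028 to 115563 over all libraries, as the label of the cells would have it. Their medians in low serum were -0.62 in wild-type and -0.84 in ΔLEO1 cells, against -0.97 and -1.05 over all tested genes. In the wild type 5 of the 18 were called lower, against 36.1% of all tested genes. The ΔLEO1 cells had 4 called lower and 1, COL6A1 at 1.496, called higher, against 47.2% and 0.975% of all tested genes. COL1A1 at -1.95 and LOX at -1.75 led in wild-type cells. COL6A1 at -1.63 was the 1 called between genotypes in 10% serum, where 4.64% of all tested genes were called lower.

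Among markers of other cell types, 2 keratin genes that simple epithelia express were well above 0 in these cells. KRT18 had 96.0 to 1113 CPM and KRT8 23.1 to 79.7 CPM over the 12 libraries. They were the 2 tested of 8 epithelial markers and differed in direction between genotypes. KRT18 was higher in ΔLEO1 cells by 1.95 ± 0.44 in 10% serum (edgeR adjusted p = 4.04e-04) and by 2.67 ± 0.44 in 0.1% serum (edgeR adjusted p = 5.47e-07). KRT8 had log2 differences of -0.87 ± 0.45 (edgeR adjusted p = 0.314) and -0.995 ± 0.45 (edgeR adjusted p = 0.254). The summed CPM of the list was 319 to 463 in WT_10, 841 to 1142 in Leo1_10, 167 to 182 in WT_01 and 510 to 585 in Leo1_01. This sum, most of it KRT18, was higher in the genotype where the PSG genes other than PSG5 were higher. The defining epithelial markers EPCAM, CDH1 and KRT5 had too few counts to be tested. KRT18 fell by 2.68 and 1.96 in low serum in wild-type and ΔLEO1 cells. Of 5 endothelial markers only TEK was tested, with 263 counts in WT_10, 10 in Leo1_10, 285 in WT_01 and 2 in Leo1_01. Of 5 macrophage markers 3 were tested. PTPRC, which passed the filter through ΔLEO1 libraries alone, had 34 counts in WT_10, 561 in Leo1_10, 41 in WT_01 and 671 in Leo1_01. The summed CPM of the list was 2.17 to 2.58 in WT_10 and 3.58 to 8.58 in Leo1_10. PTPRC reached 7.10 CPM. The other 2 tested, CD14 and CD68, reached 1.43 and 1.45 CPM and were not called between genotypes in either medium. CD14 at -1.71 and CD68 at -1.48 were lower in low serum in ΔLEO1 cells, where 47.2% of all tested genes were called lower. The part of these markers in the PSG values was not tested.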

How the data were processed

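Poly(A) RNA was sequenced from 12 libraries that also held ERCC transcripts. Per the labels and the study's methods, the authors demultiplexed with bcl2fastq 2.20.0.422 and aligned paired-end reads with STAR to GRCh38 and the ERCC sequences. They used featureCounts 1.5.1 to count those in exons. The STAR version is 2.7.10a in the submitters' processing notes, while the study's methods name an earlier one, and which was used is not settled. The deposited values are raw counts per gene and per ERCC transcript, and were used as deposited. The annotation release, strand setting and treatment of multiply mapped reads are not given in the sources used here.

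The 10 members and all gene lists were chosen with earlier results of these data known. Genes that exceeded 1 CPM in at least 3 libraries were tested in R 4.3.3 with edgeR 4.0.16 (limma 3.58.1), with ERCC totals times their TMM factor as effective library size, all 12 libraries in 1 fit of 4 groups, two-sided likelihood ratio tests and Benjamini-Hochberg adjustment over all 13236 genes, called under 0.05. The study names edgeR, the filter and the ERCC scale. The SE came from the Fisher information of the fit. Ratios of summed counts have exact 95% intervals, and shares have Clopper-Pearson intervals, which cover counting error only. A count of 0 was set to a limit of 3 counts over the group. Levels per kilobase used the union of GENCODE v29 exons, and identities came from MAFFT 7.526 alignments. Genes were named by symbol, 42020 of which matched.

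All 10 members are named, with the 5 genes most alike by Pearson r (log2 CPM of the ERCC size, prior count 2), up to 4 called genes of smallest adjusted p per list and comparison, and LEO1. The code was tested on simulated data. Alternatives were the quasi-likelihood test, DESeq2 1.42.0, gene-based and ERCC-total scaling, no filter, only the 6 libraries compared, and leaving out or summing libraries. A fit with a term for the highest-numbered library of each group was added after seeing the data. The sequence of 1 further tested member in the second exon 3 stretch is not reported here.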

Additional observations from a re-analysis of the deposited data

How the results depend on the processing

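Across the alternatives, 216 counts of called members stayed within 1.5 times of the main count and 2 did not. These counts take in all tested members, also PSG1, PSG2 and PSG6, so the loss of PSG4 alone can stay within that limit. With 1 library left out, PSG4 was called between genotypes in 7 of 12 fits in 10% serum and in 9 of 12 in 0.1% serum. Without a filter all 10 members entered, among 32285 genes. In low serum in ΔLEO1 cells 10 in place of 6 were past the threshold, where 4300 of all genes were lower. In 10% serum 8 in place of 5 were higher in ΔLEO1 cells, where 1115 of all genes were higher. As PSG1, PSG2 and PSG6 were chosen for high values in Leo1_10 relative to Leo1_01, nothing is read from these counts. Scaling on the genes moved the split of all calls: in wild-type cells in low serum from 4776 lower and 125 higher to 2201 and 2117 (TMM), in ΔLEO1 cells from 6253 and 129 to 1710 and 2190, and in the interaction from 11 and 18 to 135 and 406. With only the 6 libraries compared, 8575 were lower in wild-type and 1642 in ΔLEO1 cells in low serum, and 1043 in place of 556 higher in ΔLEO1 cells in 10% serum. The calls over all genes rest on single libraries. With 1 library left out, lower calls in low serum ran from 1147 (without WT_01 replicate 7) to 8603 (without Leo1_01 replicate 12) in wild-type cells and from 638 (without Leo1_01 replicate 10) to 11684 (without Leo1_01 replicate 12) in ΔLEO1 cells. They were also 1205, 1790 and 7561 without WT_10 replicates 1, 2 and 3, 1296 without WT_01 replicate 9 and 7804 without Leo1_01 replicate 11 in wild-type cells. In ΔLEO1 cells they were 838, 3091 and 1088 without Leo1_10 replicates 4 and 5 and Leo1_01 replicate 11. Genes called higher in ΔLEO1 cells ran from 367 (without WT_10 replicate 3) to 1092 (without Leo1_01 replicate 12) in 10% serum and from 315 (without WT_01 replicate 7) to 1340 (without Leo1_01 replicate 11) in 0.1% serum. Without the highest-numbered library of each group, 9506 and 12241 were lower in low serum in wild-type and ΔLEO1 cells, and 966 and 378 were higher in ΔLEO1 cells in 10% and 0.1% serum, beside 958 and 2195 lower. A term for those libraries, added after seeing the data, gave 3892 and 4257 lower calls in low serum and the reported number of called members in every comparison.

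Signs turned only in values called neither as reported nor under the alternative. The log2 difference of PSG5 between genotypes in 10% serum was -0.28 to 0.0814 with 1 library left out. The interaction of PSG2 was 0.0811 with DESeq2, 0.17 with the lower-numbered libraries summed and -0.96 to 0.48 with 1 library left out. That of PSG6 was 0.0299 when DESeq2 scaled on genes, 0.0317 with TMM on the genes, 1.33 without the highest-numbered libraries and -0.80 to 1.96 with 1 left out. With 1 left out it was -0.15 to 1.09 for PSG4 and -0.52 to 0.69 for PSG9. PSG4 between genotypes also lost its call with those libraries summed (adjusted p = 0.300 and 0.102) and, in 0.1% serum, with only the 6 libraries compared (0.0527). The cause was not tested. No paired analysis was possible because the running numbers of the libraries are not shared between groups. Members with a few counts in low serum are limited by depth.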
